A study of Arabidopsis thaliana with 6 samples.

Results

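QQS (QUA-QUINE STARCH, AT3G30720) was measured by 1 probe set, 256940_at, of the 22746 non-control probe sets on an oligonucleotide expression array, and its values on all 6 arrays of the study are described here. The arrays hold total RNA of 3-week-old Arabidopsis thaliana plants, 2 arrays each of the vip5 mutant, the vip6 mutant and wild type, written WT. The labels give plant age and genotype. They name no mutant allele, accession, tissue or growth condition. They do not say if separate plantings lie behind the 2 arrays of each genotype, so every p-value rests on a spread between arrays that may be technical. QQS was selected on its measured values, which are higher in the vip5 arrays than in vip6 and WT, so its levels and differences are a description and carry no test.

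QQS is known as an orphan gene, a protein-coding gene with no recognised relatives outside Arabidopsis thaliana. Plants with less QQS transcript accumulate more leaf starch, and its small protein binds NF-YC4, a subunit of the NF-Y transcription factor. The gene is also known for naturally occurring silent and active states that follow DNA methylation at its 5′ end. VIP5 and VIP6 (VERNALIZATION INDEPENDENCE) encode the plant counterparts of Rtf1 and Ctr9, proteins of the Paf1 complex, which travels with RNA polymerase II and is needed for several histone marks on transcribed genes.

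QQS was bright in both vip5 arrays, intermediate in both vip6 arrays and lowest in both WT arrays. Its intensity, on the linear scale the authors scaled per array, was 2255.2 and 2855.0 in vip5 (replicate numbers 1 and 2), 466.0 and 525.0 in vip6, and 343.8 and 240.5 in WT. No 2 groups overlapped, and the same order of arrays was found for 20.0% of tested probe sets in vip5 above WT, 19.2% in vip6 above WT and 13.4% in vip5 above vip6. The group means were 2555 ± 424 in vip5, 496 ± 41.7 in vip6 and 292 ± 73.0 in WT (SD, n = 2 each). The coefficient of variation between arrays was 16.6% in vip5, 8.42% in vip6 and 25% in WT.

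**Figure D1:**
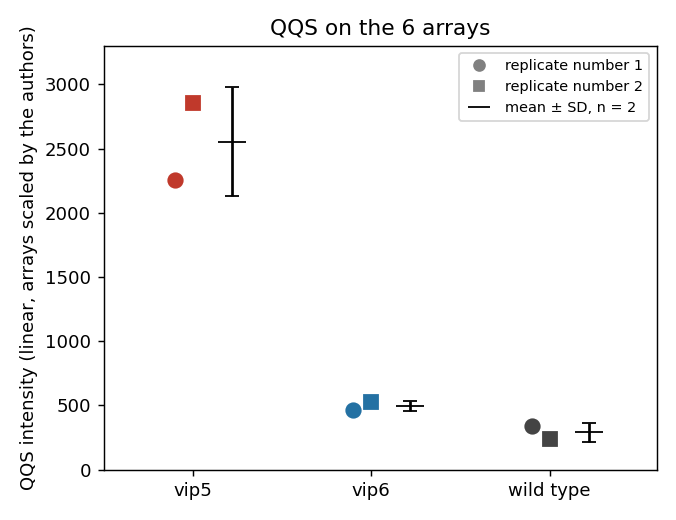
Intensity of QQS (linear scale, y axis) on each of the 6 arrays, by genotype (x axis), with circles for replicate number 1, squares for number 2 and the mean ± SD of 2 arrays in black. Both vip5 arrays lie at 2255.2 or above, while the vip6 and WT arrays lie between 240.5 and 525.0.

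The order of the groups was the same once each array was set to its own median. As a multiple of that median, QQS was at 12.35 and 15.95 in vip5, 2.58 and 2.94 in vip6, and 1.88 and 1.27 in WT. Intensities of different probe sets depend on how well each probe set binds its transcript, so these values compare arrays and do not rank QQS among transcripts. In RNA from whole samples, fewer cells with a transcript and less transcript per cell cannot be told apart.

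The comparison of vip5 with WT asks how transcript levels differ in plants with a vip5 mutation. Mean QQS intensity was 8.75 times as high in vip5 as in WT, and the 4 ratios of a vip5 array to a WT array ran from 6.56 to 11.9. The lowest vip5 array exceeded the highest WT array by 1911 intensity units, against a range of 599.8 between the vip5 arrays and of 103.3 between the WT arrays. On the log2(intensity + 39.35) scale used for all further comparisons, which understates changes of dim probe sets, the difference was 2.98 with a standard error of 0.23 from the model of all arrays. It was 2.58 between the arrays numbered 1 and 3.37 between those numbered 2. No other of the 14323 probe sets bright enough to be tested had as high a difference with these settings, although 3 did with a pseudocount of 1 and 1 did without vip5 replicate 2 or without WT replicate 1. The next highest difference was 2.52, of a probe set with no gene name in the annotation used. Downward differences reached further, to -3.49 for the lectin gene AT3G16530. In the fit over all probe sets (limma, Benjamini-Hochberg adjusted p under 0.05), 5 of 14323 were called higher in vip5, which is 0.0349%, and QQS was one of them by the values it was chosen for. Its call ended in 5 of the 11 alternatives, with no filter on dim probe sets and without either vip5 or either WT array, where its difference lay between 2.75 and 3.20.

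The same comparison for VIP6 placed QQS far lower in the ranking. Mean QQS intensity was 1.70 times as high in vip6 as in WT, with single-array ratios from 1.36 to 2.18. The log2 difference was 0.71 with a standard error of 0.23, and 0.40 within number 1 and 1.01 within number 2. Both vip6 arrays lay above both WT arrays, by 122.2 intensity units at the nearest, which is more than the range of 103.3 between the WT arrays and of 59.0 between the vip6 arrays. That order was shared by 19.2% of tested probe sets, as above. Limma did not call QQS in vip6 minus WT with these settings, nor with any other setting that kept all 6 arrays. QQS ranked 288 from the top among the vip6 minus WT differences, and 97.99% of tested probe sets had a lower one. Its rank moved between 233 and 1006 over the settings tried, the last of these without WT replicate 2, where the difference was 0.48. The vip6 and WT levels are thus the neighbours in the order whose distance, in proportion to its size, depends most on single arrays.

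The direct comparison of the mutants asks where the 2 genotypes part. QQS was 5.16 times as high in vip5 as in vip6 by mean intensity, and the single-array ratios ran from 4.296 to 6.13. Its log2 difference, vip5 minus vip6, was 2.27 with a standard error of 0.23, and it was 2.18 within number 1 and 2.36 within number 2. With these settings no other tested probe set differed as much between the mutants in either direction. With a pseudocount of 1 there was 1 that did, and with 1 of the 4 mutant arrays left out there were 1 or 2. The SD of this difference over all 14323 probe sets was 0.20, and 8 of them, QQS included, differed by at least 1 on the log2 scale. Limma called 0 of 14323 probe sets between the mutants (0%), and 220 had an unadjusted p under 0.05. The comparisons share arrays, vip5 arrays in this one and in that with WT, so that a high pair of vip5 arrays enters both.

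**Figure D2:**
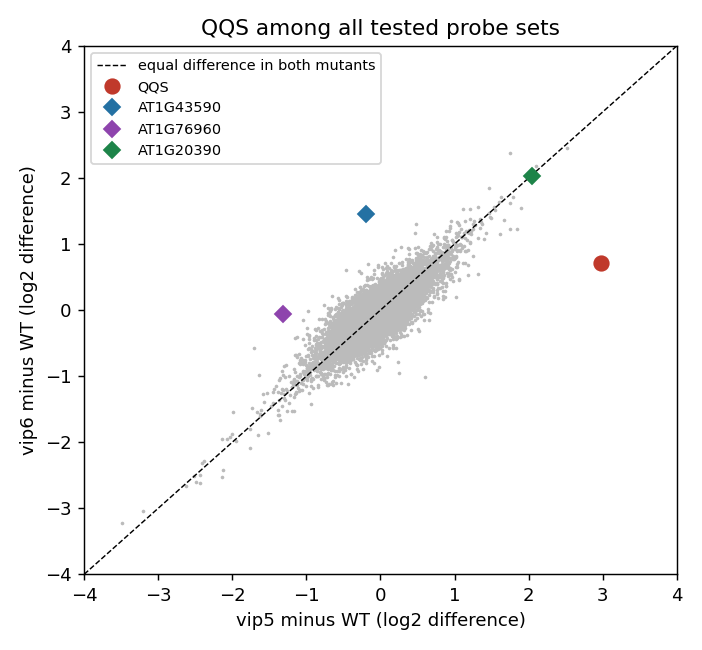
Log2 difference of vip5 minus WT (x axis) and vip6 minus WT (y axis) for 14323 tested probe sets in grey, with QQS as a red circle and 3 other genes as diamonds. Both axes share the WT arrays, which alone draws points towards the dashed line of equal difference. QQS lies at 2.98 and 0.71, away from that line, and AT1G20390 lies close to it at 2.05 and 2.02.

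QQS was the 1 tested probe set with both vip5 arrays above the other 4 arrays and a mean at least 1 log2 unit above each other group, an order it meets by choice. The reverse order, vip5 lowest by the same margins, was met by AT1G76960 and by a probe set without a gene name. The margins were met with vip6 highest by AT1G43590, annotated as a pseudogene, and with vip6 lowest by 1 unnamed probe set. In contrast, WT was set apart from both mutants in 81 probe sets that were highest in WT and 56 that were lowest. A group set apart from the other 2 was therefore mostly WT in these arrays, and QQS belonged to the few probe sets set apart in 1 mutant.

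The count for the vip5-high order depended on single arrays. It was 5 without vip5 replicate 1, 20 without vip5 replicate 2, 2 with the first vip6 array left out and 5 with the second left out, and QQS met the order in each of the settings with 5 or fewer. Without vip5 replicate 1, the others were AT5G66740, AT3G16150 and a pair of unnamed probe sets, and without vip6 replicate 2 they were AT3G16150, AT1G74930 and a pair of unnamed ones. AT3G16150, for example, had 449.0 and 1431.5 in vip5, 284.3 and 1025.3 in vip6, and 189.5 and 236.2 in WT. That gene was bright in number 2 of both mutants, whereas QQS was bright in both vip5 arrays and in neither vip6 array. These genes were named after their values were seen.

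After QQS, the largest differences between the mutants among probe sets that name 1 gene belonged to AT1G43590, AT1G76960, AT3G59780 and AT5G63220. AT1G43590 had intensities of 52.4 and 8.4 in vip5, against 192.5 and 145.2 in vip6, with a log2 difference of -1.64, and 46.8 and 27.4 in WT. AT1G76960 had 218.1 and 326.6 in vip5, against 499.7 and 954.6 in vip6 (log2 difference -1.25), and 746.2 and 706.7 in WT. AT3G59780 had 1213.6 and 1114.6 in vip5 but 1007.4 and 300.0 in vip6 (log2 difference 1.01), so that 1 vip6 array made its difference. AT5G63220 had 103.8 and 129.1 in vip5, against 231.1 and 295.0 in vip6 (log2 difference -0.95). None of these 4 passed the limma test between the mutants (adjusted p = 1.0 for each), and their distance from 0 was at most 1.64, against 2.27 for QQS.

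Between replicate numbers QQS differed less than between vip5 and the other groups. Number 2 minus number 1 was 0.34 on the log2 scale in vip5, 0.16 in vip6 and -0.45 in WT, so the sign in WT was opposite to that in the mutants. Of the tested probe sets, 63.1% in vip5, 36.2% in vip6 and 80.8% in WT had a smaller absolute difference between their numbers. The control transcripts added for hybridisation differed more, with 18 probe sets brighter on number 2 by 2.45 to 7.06 times in vip5, 1.76 to 3.95 times in vip6 and 1.40 to 2.17 times in WT. Within the numbers, the vip5 minus WT difference of QQS was 2.58 and 3.37 on the log2 scale.

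The genes whose pattern was most like that of QQS were sought by Pearson correlation of log2 values over the 6 arrays, among 134 other tested probe sets that name 1 gene and whose group means span at least 1 log2 unit. The correlations describe 6 arrays in 3 groups and carry no p. AT3G26110 was closest of these, at 0.93, and was the 1 gene of the 134 at 0.9 or above. Over all tested probe sets, named or not and of any span, the highest correlation was 0.99. The intensities of AT3G26110 were 254.6 and 253.9 in vip5, 146.1 and 164.4 in vip6, and 87.8 and 116.0 in WT. The groups of AT3G26110 keep the order of QQS and do not overlap, but its log2 difference was 1.06 in vip5 and 0.47 in vip6, against 2.98 and 0.71 for QQS (limma adjusted p = 0.128 and 0.477 for AT3G26110).

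Next came AT5G26700 and AT1G23850, both at 0.87, then JRG21, a jasmonate-regulated oxygenase gene, AT1G10770 and AT1G03710, at 0.82 each. AT5G26700 had 245.5 and 248.5 in vip5, 145.2 and 206.4 in vip6, and 92.5 and 115.1 in WT. AT1G23850 had 441.0 and 262.4 in vip5, 215.6 and 191.5 in vip6, and 140.8 and 116.0 in WT. In these 5 genes the log2 difference of vip5 minus WT lay between 1.0 and 1.19 and that of vip6 minus WT between 0.54 and 0.90, and neither passed the limma test of group means in any of them. With the replicate number as a block, which the design does not establish as a pairing, all 5 passed in vip5, and JRG21 and AT1G03710 passed in vip6 (limma adjusted p from 0.0146 to 0.0372). Their vip5 and vip6 levels were thus nearer to each other than those of QQS, at 0.26 to 0.65 log2 units apart, against 2.27.

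Among the same 134 probe sets, the most opposite patterns were those of AT3G57490, which encodes a ribosomal protein, LUP5, of the triterpene synthase family (both at -0.87), and AT2G15830 (-0.85). LUP5 had 28.6 and 38.0 in vip5, 63.4 and 53.6 in vip6, and 111.4 and 163.1 in WT, with log2 differences of -1.27 and -0.84 from WT in vip5 and vip6 (limma adjusted p = 0.114 and 0.242). AT5G63220, described above, had a correlation of -0.93 but a smaller span than 1 log2 unit.

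**Figure D3:**
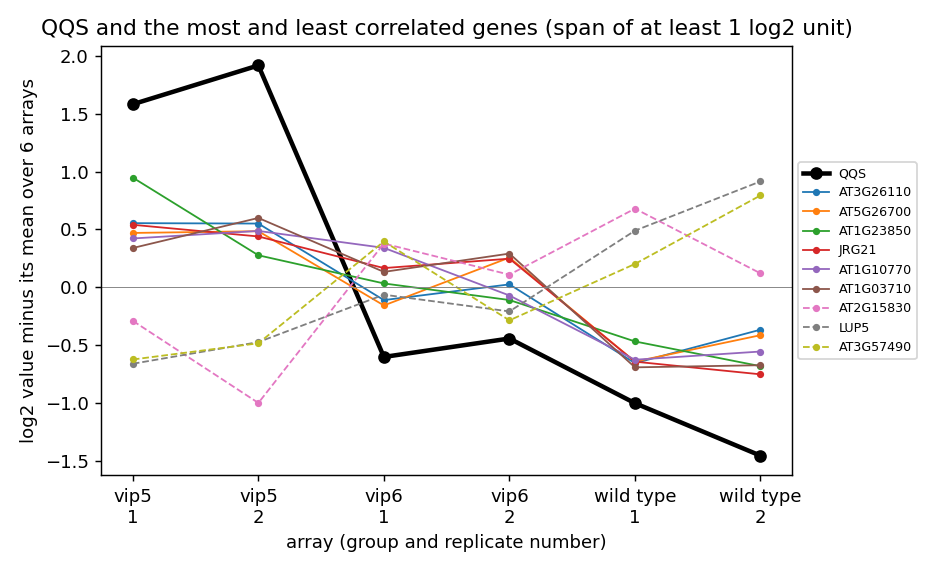
Log2 value minus its mean over the 6 arrays (y axis) for each array (x axis), for QQS in black and, among the 134 genes whose group means span at least 1 log2 unit, the 6 with the highest correlation with it as solid lines and the 3 with the lowest as dashed lines. QQS drops steeply between the vip5 and vip6 arrays, where the 6 similar genes differ by 0.26 to 0.65 log2 units. JRG21, AT1G03710, AT1G10770 and AT5G26700 differ more between vip6 and WT, by 0.58 to 0.90. AT3G26110 and AT1G23850 differ more between vip5 and vip6.

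QQS lies on chromosome 3 in a stretch rich in pseudogenes. Of the 160 annotated loci within 80 of it in gene order, 125 are pseudogenes and 23 are protein-coding, and 31 are named by a probe set. Only 1 of these 31, AT3G30460, was bright enough to be tested, and it was at 132.0 and 146.9 in vip5, 122.2 and 152.6 in vip6, and 174.7 and 180.0 in WT (log2 difference -0.28 in vip5 and -0.30 in vip6, limma adjusted p = 0.638 and 0.655). The other 30 reached at most 77.0 on any array, with a median of 21.6 for the brightest array of each. The log2 differences of the 31 lay between -0.57 and 0.86 in vip5, with a median of -0.04, and between -0.67 and 0.45 in vip6, with a median of -0.01, against 2.98 and 0.71 for QQS. The added value of 39.35 keeps the differences of such dim probe sets small. Several of the 31, with the suffix _x_at or _s_at, hold probes that may bind other sequences too. The nearest locus with a probe set, AT3G30730, 4 loci away, had 12.5 and 5.8 in vip5, 4.1 and 11.4 in vip6, and 15.4 and 18.9 in WT, where the files give no background level to judge detection by.

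**Figure D4:**
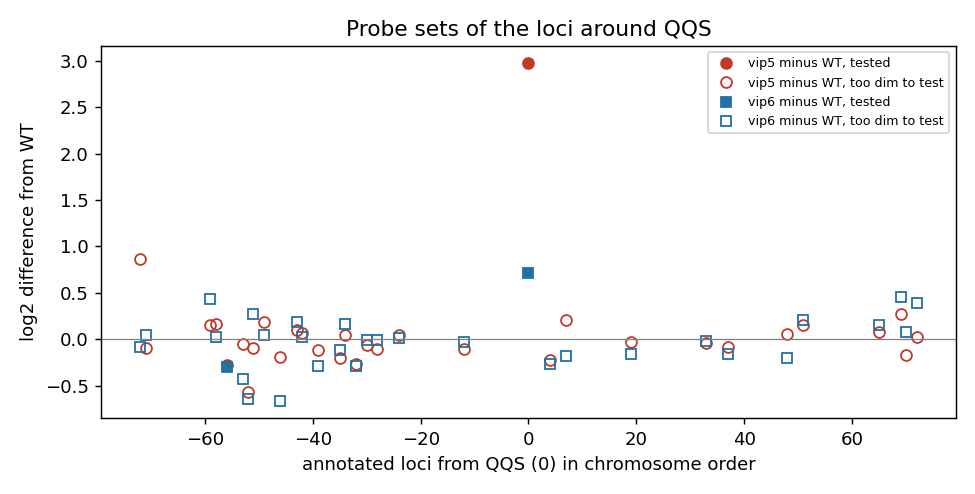
Log2 difference from WT (y axis) of each probe set naming a locus within 80 annotated loci of QQS, by position in gene order with QQS at 0 (x axis), for vip5 (circles) and vip6 (squares), with open symbols for probe sets too dim to be tested. QQS lies at 2.98 in vip5, while the 31 others lie between -0.57 and 0.86.

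The 5 nearest tested loci on each side lay 56 to 178 loci before QQS and 253 to 416 loci after it. None of the 10 passed the limma test of group means in any comparison. Their log2 differences lay between -0.78 and 0.36 in vip5 and between -1.0 and 0.17 in vip6. The largest was that of AT3G30160, with 81.6 and 47.2 in vip5, 49.6 and 47.2 in vip6, and 138.9 and 133.4 in WT. Its log2 differences were -0.78 in vip5 and -1.0 in vip6, opposite in sign to those of QQS, with limma adjusted p of 0.249 and 0.169. The probe set of AT3G30160 also has the suffix _x_at, so its signal may not be of that locus alone. AT3G42050, which encodes a subunit of the vacuolar proton pump, had log2 differences of 0.24 and 0.17. AT3G33530, 383 loci after QQS, had 675.5 and 711.2 in vip5, 503.0 and 535.3 in vip6, and 498.4 and 570.2 in WT. Both its vip5 arrays thus lay above all vip6 and WT arrays, with log2 differences of 0.36 in vip5 and -0.04 in vip6. The share of all probe sets with this order was not determined.

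Because its neighbours are largely pseudogenes, QQS was also set beside all probe sets that name a pseudogene. Of 989 such probe sets, 29 were bright enough to be tested (2.93%, against 63.0% of all probe sets). Of these, 1 was called higher and none lower in each mutant against WT by limma, against 0.0349% of all tested probe sets called higher in vip5 and 0.0349% in vip6. The 1 was AT1G20390, at 350.3 and 551.9 in vip5, 434.9 and 431.2 in vip6, and 68.6 and 85.5 in WT (log2 difference 2.05 with adjusted p = 0.0431 in vip5, and 2.02 with adjusted p = 0.0367 in vip6). It was as high in vip6 as in vip5 to within 0.02 log2 units, with a standard error of 0.23 on that difference, while QQS was 2.27 units higher in vip5. Its call ended, in vip5, without either WT or either vip5 array and, in vip6, without either WT or either vip6 array, where its difference stayed between 1.75 and 2.35 in vip5 and between 1.92 and 2.13 in vip6. With the settings that kept all 6 arrays counted too, its call was lost in 7 of 11 alternatives in vip5 and in 5 of 11 in vip6. AT1G20390 was named after its values were seen. The median log2 difference of the 29 was -0.02 in vip5 and -0.08 in vip6, against 0.00 and -0.01 over all tested probe sets.

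Genes known to act with QQS or on the starch it affects were taken from fixed lists, together with other groups of genes. The other lists hold genes of DNA methylation and silencing, sugar starvation, the Paf1 complex and the clock, and markers of plant organs. The tested members are therefore not starch genes alone. Of 154 loci in 12 lists, the annotation names probe sets for 20, and 17 of those loci were bright enough to test, through 19 probe sets. By limma, 0 of the 19 passed in vip5, in vip6 or between the mutants, against 0.0768%, 0.105% and 0% of all tested probe sets. An unadjusted limma p under 0.05 was found for 3, 1 and 0 of the 19, against 1567, 1415 and 220 of all 14323. The median log2 difference of the 19 was 0.00 in vip5 and -0.07 in vip6. The probe sets of the NF-Y subunits, NF-YC4 among them, and those of the Paf1 complex, VIP5 and VIP6 included, are not named in the annotation used and were not analysed here, so the genotypes were not checked against the mutated genes.

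Of the 17 starch synthesis genes, 3 were tested and none passed. APL3, a large subunit of the enzyme that makes ADP-glucose for starch, had 270.5 and 308.8 in vip5, 316.3 and 415.4 in vip6, and 402.5 and 483.8 in WT. Both vip5 arrays lay below both WT arrays, an order found for 20.8% of tested probe sets, and the log2 difference was -0.55 (limma adjusted p = 0.401). SBE2.2, a starch branching enzyme, had log2 differences of -0.15 in vip5 and -0.02 in vip6. PTST1, which brings a starch synthase to the granule, had 0.07 and -0.11. For QQS the same differences were 2.98 and 0.71.

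Of the 22 starch breakdown genes, 3 were tested and none passed. PWD, which phosphorylates starch at the start of its breakdown, had 2391.2 and 443.8 in vip5, 2384.3 and 453.8 in vip6, and 1375.2 and 710.6 in WT. Every group was higher on number 1 than on number 2. The log2 difference of PWD from WT of the same number was, in vip5, 0.78 on number 1 and -0.63 on number 2, where QQS was 2.58 and 3.37. DPE1, the plastid disproportionating enzyme that handles maltotriose, likewise had 0.39 and -0.91 in vip5. AMY1, an alpha-amylase, had 241.1 and 257.5 in vip5, 305.6 and 237.1 in vip6, and 150.8 and 223.2 in WT, with log2 differences of 0.37 and 0.47 (limma adjusted p = 0.609 and 0.555).

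Of the list for SnRK1, the kinase of the energy starvation response, 3 of 12 genes were tested and none passed. SEN5, a gene induced by darkness and sugar shortage, had 7768.5 and 2795.4 in vip5, 6900.4 and 3135.6 in vip6, and 11796.4 and 3872.8 in WT, so it differed more between the numbers than between the genotypes (log2 difference -0.53 in vip5 and -0.54 in vip6). The SnRK1 subunit genes AKINBETA1 and AKINBETA2 had log2 differences from WT of -0.21 and 0.15 in vip5, against -0.07 and 0.10 in vip6. GI, a clock gene, also differed between the numbers in the mutants, at 1331.5 and 473.8 in vip5, 1251.5 and 544.9 in vip6, and 623.8 and 770.3 in WT. QQS was slightly higher on number 2 in both mutants, not on number 1.

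**Figure D5:**
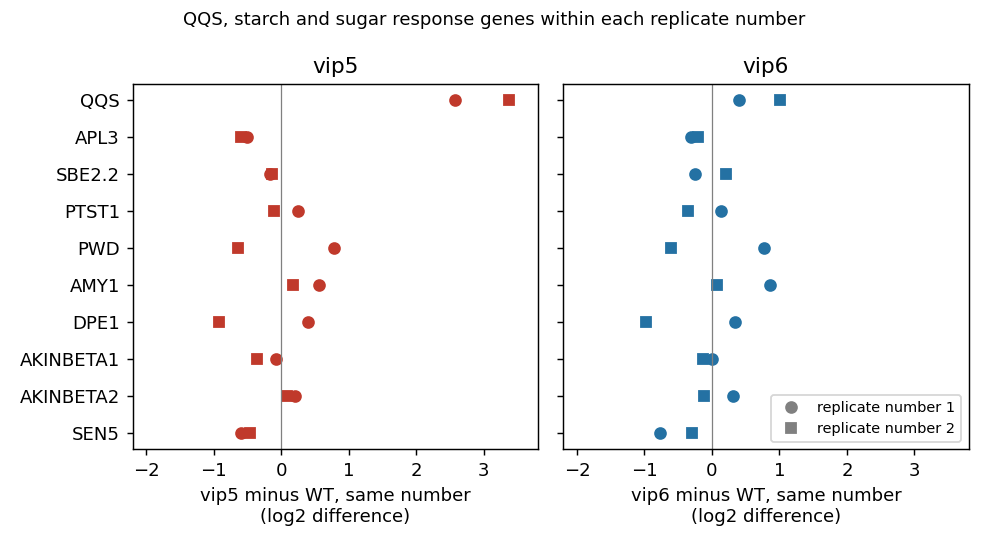
Log2 difference from the WT array of the same replicate number (x axis) in vip5 (left) and vip6 (right) for QQS, 6 starch genes and 3 genes of the SnRK1 list, with circles for number 1 and squares for number 2. QQS lies at 2.58 and 3.37 in vip5, while PWD and DPE1 lie on both sides of 0.

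Of 31 genes of DNA methylation and silencing, 1 was tested. This was DME, a DNA demethylase, whose 3 probe sets had log2 differences of 0.00, 0.04 and -0.19 in vip5, against -0.49, 0.19 and -0.20 in vip6, and none passed. Of 8 genes known to be expressed when DNA methylation is lost, the transposon gene ATMU1 was the 1 named by a probe set. It was not bright enough to be tested, at 17.6 and 2.9 in vip5, 1.5 and 8.2 in vip6, and 2.4 and 3.1 in WT.

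Markers of plant organs were set beside QQS because the labels do not name the tissue. The leaf genes were bright on all arrays, with RCA, Rubisco activase, at 24526.6 and 46439.9 in vip5, 20305.3 and 38063.0 in vip6, and 22676.3 and 32585.0 in WT. Of 7 leaf markers 4 were tested, and their median log2 difference was -0.11 in vip5 and -0.14 in vip6. LHCB4.3, a light-harvesting protein of photosystem II, had 2061.1 and 3102.8 in vip5, 2023.5 and 2569.1 in vip6, and 5764.0 and 4104.6 in WT (log2 difference -0.93 and -1.08, limma adjusted p = 0.289 and 0.242). Both mutants lay below WT on all arrays for this marker, unlike RCA, and the other 2 leaf markers, LHCB4.1 and LHCB4.2, had log2 differences of 0.02 and -0.24 in vip5 and of 0.08 and -0.31 in vip6. PYK10, a root beta-glucosidase, had 896.7 and 607.1 in vip5, 716.8 and 869.2 in vip6, and 1094.4 and 1084.8 in WT (log2 difference -0.54 and -0.45, limma adjusted p = 0.45 and 0.576). The root hair expansin EXPA7 was not bright enough to be tested, with 15.2 and 6.9 in vip5, 10.7 and 10.3 in vip6, and 51.1 and 33.0 in WT. Thus both root genes were below WT in both mutants, with no call for PYK10 and no test of the dim EXPA7. For LHCB4.3 and PYK10, both vip5 arrays lay below both WT arrays, an order found for 20.8% of tested probe sets. The anther marker A9 had log2 differences of 0.15 and 0.05, and no seed marker was named. The part of differing organ shares in the QQS levels was not tested.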

How the data were processed

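The deposited file is a single table of intensity on a linear scale, with 6 arrays and no value below 0. Its software was not given in the sources used here. From the values, each array had been scaled to a common mean after leaving out the lowest and highest 2%, so no further normalization was applied. Groups and replicate numbers came from the sample titles. Values were taken as log2(intensity + 39.35), where the added value is the arrays' 25th percentile (their median). Leaving aside 64 controls, 14323 of 22746 probe sets exceeded the 40th percentile on at least 2 arrays and were tested.

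All 6 arrays entered 1 limma fit of 3 group means (limma 3.58.1, R 4.3.3; 3 residual degrees of freedom). Tests were two-sided, and p-values were adjusted by Benjamini-Hochberg over the tested probe sets, with a threshold of 0.05. The model was tested on 30 draws of simulated data with 200 probe sets changed in vip5. It found 21.1% of the 2-fold and 74.9% of the 4-fold changes, with 109 false calls over all draws. A gene that did not pass is therefore not shown to be unchanged. The simulated arrays were independent draws with each probe set's estimated SD and held no shared difference between replicate numbers. These rates may thus not hold for the real arrays. SDs are of deposited intensities, while log2 differences and standard errors come from the model. Figures were drawn with matplotlib 3.10.9.

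Probe sets were named through the platform annotation and gene identifiers of the TAIR10.1 gene table, which served for names and gene order only. Of 22810 probe sets, 13513 name 1 gene (13436 matched a locus), 503 several, and 8794 are not listed and stay unnamed.

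QQS and the lists were chosen with earlier results of these data known. Genes named are QQS, the tested list members, the 5 nearest tested loci on each side, the 6 most and 3 least correlated with QQS among those whose group means span at least 1 log2 unit, and the 5 with the largest absolute difference between the mutants. The window of 80 loci and the pseudogene group were chosen after the data were seen.

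All groups carry replicate numbers 1 and 2. Their differences, number 2 minus number 1, correlated over probe sets at 0.306 between vip5 and WT, 0.308 between vip6 and WT and 0.655 between vip5 and vip6, which with 2 numbers does not establish pairing. Alternatives covered the pseudocount, quantile normalization, the filter, the replicate block and each array left out. The number of arrays limits the precision.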

Additional observations from a re-analysis of the deposited data

How the results depend on the processing

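The log2 difference of QQS kept its sign and moved by less than 0.24, its SD between arrays pooled over the groups, in all 11 alternatives of each comparison. With 1 array left out it ranged from 2.75 to 3.20 for vip5 minus WT, from 0.48 to 0.93 for vip6 minus WT and from 2.1 to 2.44 for vip5 minus vip6. The other settings gave 2.83 to 3.14, 0.64 to 0.78 and 2.19 to 2.36. QQS had the highest vip5 minus WT difference in 9 of 12 settings and ranked 4 at worst, with a pseudocount of 1, and the highest vip5 minus vip6 difference in 10 of 12, ranking 3 at worst, without vip6 replicate 1. With the replicate number as a block, its differences were the same, and QQS was the 1 probe set called between the mutants, by the values it was chosen for. Its vip5 minus WT call was lost in 5 of 11 alternatives, namely no filter, without either vip5 array and without either WT array. No list member was called in any setting. Of 129 differences of the other named genes, 59 changed sign in at least 1 alternative, none with a call on either side. PWD ranged most widely, from -1.09 to 1.24 for vip5 minus WT. AT1G20390 was lost as a call in 7 of 11 alternatives in vip5 and in 5 of 11 in vip6, with log2 differences of 1.74 to 2.51 and 1.72 to 2.48 and adjusted p from 0.00531 to 0.522 and from 0.00625 to 0.545. With the replicate block 14 of the 129 differences passed that did not pass without it. In vip5 these were AT3G26110, AT5G26700, AT1G23850, JRG21, AT1G10770, AT1G03710, AT2G15830, LUP5, AT1G76960 and AT5G63220, and in vip6 JRG21, AT1G03710, AT1G43590 and AT3G30160, with limma adjusted p from 0.0145 to 0.0372.

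Counts of calls over all probe sets were less stable. For vip5 minus WT, the 11 became 5 with a pseudocount of 1, 2 with no filter on dim probe sets and 313 with the replicate block, and ranged from 0 to 18 with 1 array left out. For vip6 minus WT, the 15 became 1 with no filter and 253 with the replicate block, and ranged from 0 to 5 with 1 array left out. Between the mutants, 0 became 1 with the replicate block. The count for the vip5-high order, 1 with the settings reported, was 2 with a pseudocount of 1, 2 with no filter, and 1 to 20 with 1 array left out. The cause of these changes was not tested, apart from the fewer arrays and changed number of tested probe sets that the settings themselves bring. Leaving out an array leaves 1 in its group, assumed to vary like the others. Without background values, no detection limit can be given for dim probe sets.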

Other observations

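Among the 8423 probe sets too dim to be tested, 7 had both vip5 arrays at 40 or above and at least 2 times as bright as each of the other 4 arrays. By the same rule 3 were high in vip6 and 22 in WT. The 7 include AT3G30396, a pseudogene 72 loci before QQS, at 47.2 and 56.7 in vip5, 6.1 and 10.4 in vip6, and 11.9 and 9.7 in WT. They also include AT5G24240, at 115.6 and 88.9 in vip5, 29.1 and 10.5 in vip6, and 10.7 and 6.5 in WT, which met the vip5-high order of QQS when no filter was applied. AT3G30740, a transcribed pseudogene 7 loci after QQS, had 18.1 and 16.7 in vip5, 3.3 and 4.9 in vip6, and 6.5 and 13.5 in WT. Of the 31 probe sets of loci within 80 of QQS, AT3G30396 and AT3G30740 were the 2 with both vip5 arrays above the other 4. The share of all probe sets with this order was not determined, so the count does not set the loci near QQS apart. AT3G30740 reached at most 18.1 on any array, and no detection limit can be given for so dim a probe set. These genes and the rule were chosen after their values were seen, and no test was made.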
